A study of Homo sapiens with 15 samples.

Results

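The comparison described here is the end of a 4 day differentiation of H9, a long established line of human embryonic stem cells, against the undifferentiated starting cells. It compares 6 of the 15 libraries in the series, the 3 of day 4 and the 3 of day 0. They were chosen by the day in their labels and by no measured value. The test took its estimate of spread from all 15 libraries. The day 0 libraries came from undifferentiated H9 cells in E8, a defined medium for pluripotent cells. The day 4 libraries came from H9 cells moved to Advanced RPMI medium with activin A throughout and with CHIR99021, an inhibitor of the kinase GSK3, during the first day of the protocol only. The labels do not say from which moment the days are counted. Medium therefore changed together with day, and their parts in any difference cannot be told apart. The libraries of each day are numbered 1, 2 and 4, and values below are always given in that order. Whether the 3 libraries of 1 day stem from different cultures is not stated in the labels, and p-values therefore reflect only how much these samples varied, which may be technical variation.

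Definitive endoderm is the germ layer that forms the lining of the gut and of its organs, such as liver, pancreas and lung. In the embryo it arises from epiblast cells that pass through the primitive streak, where Wnt and Nodal signals act together, and strong Nodal signalling then favours endoderm over mesoderm. Activin A binds the same receptors as Nodal and activates SMAD2 and SMAD3, and blocking GSK3 stabilises beta-catenin, the effector of Wnt signals, which is why this pair of agents is used to make endoderm from stem cells. The transcription factors EOMES, MIXL1, GATA4, GATA6, SOX17 and FOXA2 and the chemokine receptor CXCR4 are its usual markers, while POU5F1 (OCT4), NANOG and SOX2 keep stem cells undifferentiated.

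Total counts ran from 95094932 to 105500378 on day 0 and from 54723184 to 98048836 on day 4, the lowest being day 4 replicate 4. Every count was even. Levels are given as CPM, counts brought to 1 common library size after TMM scaling, and a log2 fold change is day 4 minus day 0 with its standard error (SE). CPM does not correct for transcript length, so levels are compared between days and not between genes. The libraries of a day were not alike: over the tested genes, log2 levels of day 4 replicates 2 and 4 correlated with each other at 0.984 and with replicate 1 at 0.948 and 0.949, and the 3 day 0 pairs correlated at 0.95 to 0.971 (a description over genes, which are not independent replicates). Ribosomal protein genes took 7.39, 2.15 and 4.76% of the counts on day 0 and 2.23, 4.28 and 4.9% on day 4, so day 0 replicate 1 had the largest share of the 6.

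Of 17401 genes with enough counts to test, 3137 were higher and 2811 lower on day 4 at an adjusted p under 0.05. This was edgeR's quasi-likelihood test, with spread estimated over all 15 libraries. The higher genes are 18.0% and the lower genes 16.2% of the genes tested. These percentages are the background against which every count below is read. The gene lists below were chosen with earlier results of these data known. Their shares therefore describe the lists and are no test of a lineage or pathway. The median log2 fold change was -0.02 over all tested genes, 2.34 over the higher and -1.71 over the lower genes. Of the called genes, 136 higher and 48 lower ones had no counts in any library of 1 day, and their fitted fold changes are not sizes of effect. With these genes set to a floor of 3 read pairs over that day's libraries, 372 genes rose and 97 fell by 5 or more on the log2 scale, which is 32-fold or more, and the medians of the higher and lower genes were 2.32 and -1.71. Both counts depended on the libraries used. With only the day 0 and day 4 libraries in the fit, 2284 genes were higher and 1798 lower. The lower count was 1613 without day 4 replicate 2. In bulk RNA, fewer cells of a type and less RNA per cell cannot be told apart, which holds for every decrease reported here, as more cells and more RNA per cell cannot for the increases.

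**Figure D1:**
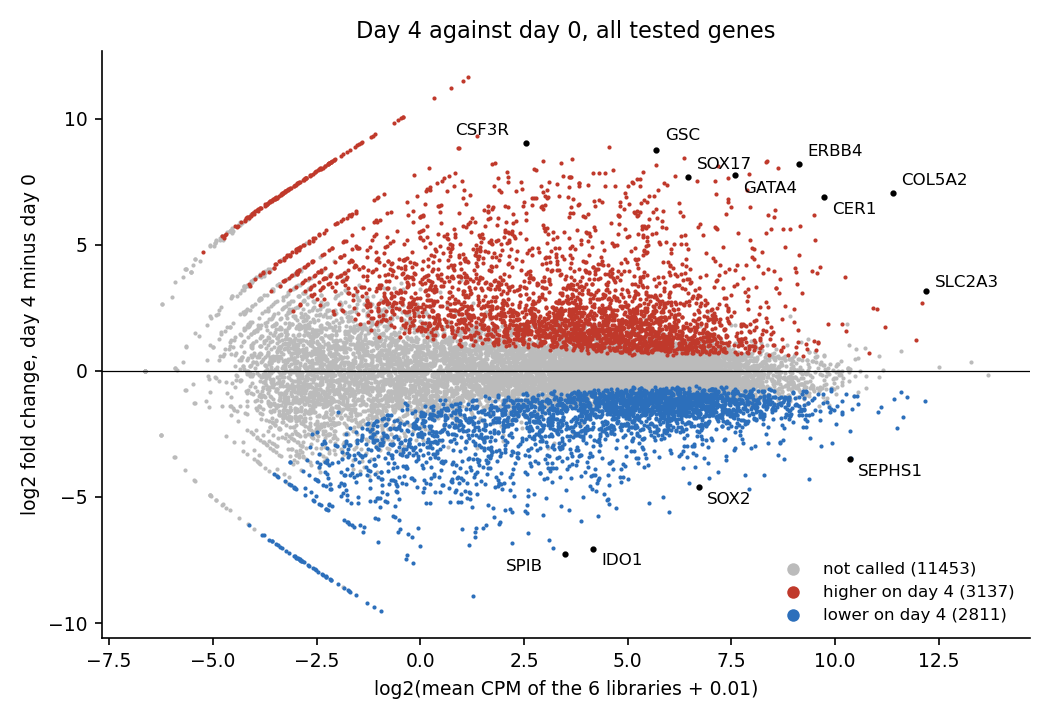
Each point is 1 of the 17401 tested genes, with log2 of the mean CPM of the 6 libraries (plus 0.01) on the horizontal axis and the log2 fold change on the vertical axis; 3137 genes (red) were higher and 2811 (blue) lower on day 4. The slanted lines of points at the left are genes with no or few counts on either day, whose fitted fold changes are not sizes of effect; COL5A2 and SLC2A3 lie far to the right among the increases.

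The 20 genes on the definitive endoderm regulator list were nearly all higher on day 4. Of them, 18 rose, none fell and 2 did not pass, with a median log2 fold change of 5.94. The list also holds CER1, a secreted inhibitor, and the receptors CXCR4 and KIT. SOX17, a SOX family factor needed for endoderm in the embryo, measured 0.828, 0.695 and 1.01 CPM in the day 0 libraries and 74.5, 204 and 246 CPM in those of day 4, with no overlap (log2 fold change 7.69, SE 0.61, adjusted p = 5.59e-07). GATA4, a zinc finger factor of endoderm and heart, went from 1.47, 1.25 and 2.45 to 201, 473 and 466 CPM (7.78, SE 0.51, adjusted p = 1.07e-07). In both genes every day 4 library stood far above every day 0 library, and day 4 replicate 1 was the lowest of its day. GATA6, the partner of GATA4, went from 2.51, 2.36 and 4.62 to 124, 697 and 570 CPM. EOMES, the T-box factor that acts early in endoderm formation, went from 1.96, 1.93 and 2.47 to 81.6, 373 and 376 CPM. Both repeat the pattern of SOX17, with no overlap between the days and replicate 1 below the other two of day 4.

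FOXA2, a forkhead factor that opens chromatin at endoderm genes, was present before differentiation at 14.9, 9.14 and 7.52 CPM and rose to 171, 210 and 89.6 CPM (log2 fold change 3.9, SE 0.59, adjusted p = 0.000172). Here replicate 1 was not the lowest library of day 4, which was replicate 4. LHX1, a LIM homeobox factor of the streak and anterior endoderm, rose from 3.05, 2.82 and 5.77 to 101, 446 and 518 CPM, and PRDM1, a repressor active in early endoderm and germ cells, from 1.73, 0.914 and 1.03 to 53.3, 64.3 and 62.1 CPM. HHEX, a homeobox gene of the anterior endoderm and liver bud, was low even on day 4, at 17.3, 35 and 6.92 CPM against 0.852, 0.775 and 0.4 CPM on day 0. The 2 regulators that did not pass were SOX7, an extraembryonic endoderm gene with means of 0.704 and 1.78 CPM (log2 fold change 1.34, adjusted p = 0.136), and SALL4, a stem cell factor with means of 186 and 260 CPM (0.48, adjusted p = 0.232).

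Surface and secreted products of endoderm rose as well, on a list that shares CER1, CXCR4 and KIT with the regulator list. Of 36 tested genes on this list, 32 were higher, 1 was lower and 3 did not pass, with a median of 5.68 (genes may be on several lists). CXCR4, the receptor for CXCL12 and a standard sorting marker of definitive endoderm, went from 1.59, 1.05 and 1.75 to 101, 509 and 205 CPM (log2 fold change 7.54, SE 0.79, adjusted p = 6.64e-06). CSF3R, the receptor for the cytokine G-CSF, went from about 0.02 CPM in each day 0 library to 4.32, 17.8 and 12.8 CPM. Counted as read pairs that is 3 in the day 0 libraries together against 1474 on day 4, a ratio of 552 with an exact 95% interval of 188 to 2680 that covers counting error only. The groups did not overlap in either receptor. FGF17, a secreted fibroblast growth factor, rose from 1.75, 1.29 and 5.75 to 167, 1390 and 797 CPM, and RTN4RL1, a relative of the Nogo receptor, from 0.142, 0.218 and 0.685 to 28.4, 106 and 114 CPM. KIT, the stem cell factor receptor often sorted together with CXCR4, started higher at 35.7, 46.6 and 30.6 CPM and reached 309, 402 and 129 CPM (2.9, SE 0.51).

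IDO1, which encodes an enzyme that breaks down tryptophan and was given with SOX17, GATA4 and CSF3R as a marker gene for this comparison, fell. It went from 55.1, 30.7 and 21.7 CPM to 0.275, 0.22 and 0.318 CPM (log2 fold change -7.05, SE 0.47, adjusted p = 1.07e-07). Its mean was already 0.734 CPM on day 1 and stayed under 1 afterwards, so in these libraries IDO1 marked the undifferentiated cells. The 3 genes of the surface and secreted list that did not pass were SFRP5, DPP4 and SHISA2, with log2 fold changes of -0.1, -0.83 and -0.47.

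**Figure D2:**
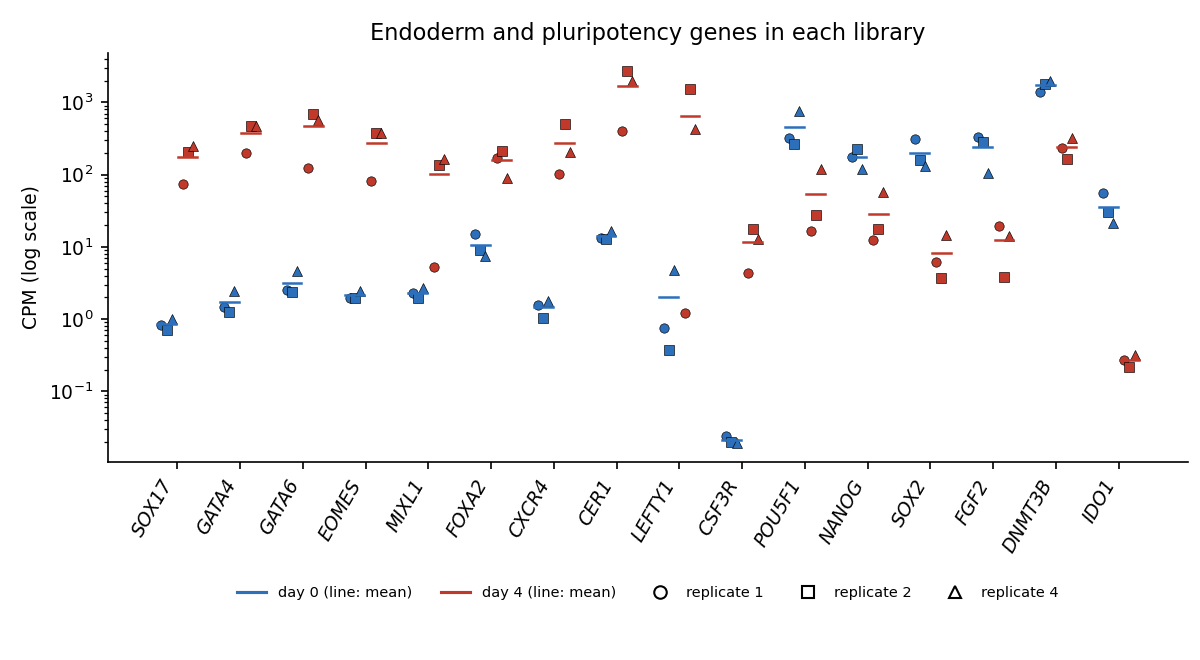
CPM on a log axis of 16 endoderm and pluripotency genes in the 3 day 0 libraries (blue) and the 3 day 4 libraries (red), with marker shapes for replicates 1, 2 and 4 and short lines at the mean of each day. The days do not overlap in any gene shown except LEFTY1, where day 4 replicate 1 (1.2 CPM) falls among the day 0 libraries.

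The genes with the largest increases included several that are not regulators of endoderm. ERBB4, a receptor of the EGF receptor family that binds neuregulins, rose from 2.27, 2.38 and 6.74 to 362, 1500 and 1470 CPM (log2 fold change 8.19, SE 1.22, adjusted p = 0.000149). DIO3, an imprinted gene whose product inactivates thyroid hormone, rose from 1.06, 0.973 and 4.07 to 263, 920 and 734 CPM (8.29, SE 0.73, adjusted p = 1.45e-06). Both were low in every day 0 library and high in every day 4 library. Among 277 tested solute carriers, 51 rose and 47 fell (26 without day 4 replicate 2), shares of 18.4% and 17% that lie near those of all tested genes, and SLC40A1, the iron exporter ferroportin, rose from 1.02, 0.357 and 0.628 to 128, 202 and 93.8 CPM. NPPB, the natriuretic peptide gene, and MYL4, an atrial myosin light chain, which are both known from heart muscle, reached 9.9, 14.7 and 50.8 CPM and 7.4, 15.7 and 39.3 CPM from under 0.2 CPM in each day 0 library.

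Glycophorin genes, which encode the major sialoglycoproteins of the red cell surface, were also among them. GYPE went from 0.213, 0.357 and 0.837 to 81.2, 224 and 185 CPM (log2 fold change 8.43, SE 0.84, adjusted p = 4.4e-06). Its family member GYPB, looked up after this was seen, rose as well, from 0.308, 0.199 and 0.552 to 49.3, 156 and 103 CPM. Both genes belong to a family of near copies, so reads may have been shared or split between them and their rises are not independent. The promoter windows show how alike the copies are and are printed for that reason, with the window of HNF4A, a liver and gut regulator that rose, and of CSF3R. They are RefSeq sequences of build GRCh38.p14 from 250 bases before to 50 bases after the first listed start, 5′ to 3′ on the gene's strand, with capitals at AGATAA, the core letters bound by GATA factors (at TGTTTAC or its reverse complement, a forkhead core, in CSF3R).
GYPB, chr4:144019331-144019630, minus strand: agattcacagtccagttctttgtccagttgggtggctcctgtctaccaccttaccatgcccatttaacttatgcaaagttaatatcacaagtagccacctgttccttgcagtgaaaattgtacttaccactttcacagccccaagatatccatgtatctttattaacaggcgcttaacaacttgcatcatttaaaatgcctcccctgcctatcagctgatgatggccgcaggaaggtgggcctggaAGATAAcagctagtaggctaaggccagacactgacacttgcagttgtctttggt
GYPE, chr4:143905510-143905809, minus strand: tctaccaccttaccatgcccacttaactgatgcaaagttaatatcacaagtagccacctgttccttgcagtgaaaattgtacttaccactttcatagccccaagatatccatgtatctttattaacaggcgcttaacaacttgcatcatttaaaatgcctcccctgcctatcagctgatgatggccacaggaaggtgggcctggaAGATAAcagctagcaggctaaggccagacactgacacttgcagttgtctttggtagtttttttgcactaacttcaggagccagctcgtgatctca
HNF4A, chr20:44355449-44355748, plus strand: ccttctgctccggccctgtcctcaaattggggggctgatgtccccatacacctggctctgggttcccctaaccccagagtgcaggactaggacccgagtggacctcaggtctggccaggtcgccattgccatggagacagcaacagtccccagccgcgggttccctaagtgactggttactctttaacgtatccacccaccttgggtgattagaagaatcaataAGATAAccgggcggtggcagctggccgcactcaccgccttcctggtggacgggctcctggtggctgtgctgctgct
CSF3R, chr1:36483265-36483564, minus strand: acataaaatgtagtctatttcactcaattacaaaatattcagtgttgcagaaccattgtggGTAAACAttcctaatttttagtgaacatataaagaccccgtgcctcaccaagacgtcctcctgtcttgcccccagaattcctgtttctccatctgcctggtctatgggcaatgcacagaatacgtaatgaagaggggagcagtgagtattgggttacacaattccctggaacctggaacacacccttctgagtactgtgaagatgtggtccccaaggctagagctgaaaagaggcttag

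Over the 259 bases in which the GYPB and GYPE windows overlap when aligned, 254 were identical (98.1%). The AGATAA match is in that shared stretch in both. A window was found for 11590 of the 17401 tested genes, by symbol. AGATAA on either strand occurred in 6.86% of 2084 windows of higher genes, 5.04% of 1946 windows of lower genes and 5.97% of all 11590. TGTTTAC occurred in 2.45%, 1.95% and 2.27%, the octamer ATTTGCAT, bound by OCT4, in 1.39%, 1.23% and 1.34%, and ATCAAAG, a TCF and LEF core, in 1.39%, 1.49% and 1.52%. These shares are a description of letters in short windows and no motif is contained in another. Each of the other printed windows holds 1 match as well, at 26 bases before the start in HNF4A and 189 bases before it in CSF3R, where the capitals read GTAAACA. The printed genes and their motifs were picked by hand and not by a rule. They are not typical of higher genes, of whose windows 6.86% held AGATAA and 2.45% TGTTTAC.

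Of the 16 tested gut tube, liver and pancreas regulators, 7 rose, 4 fell and 5 did not pass, with a median of 0.64. HNF4A went from 0.118, 0.179 and 0.209 to 35.6, 60.4 and 21.6 CPM (log2 fold change 7.84, SE 1.13, adjusted p = 0.000124), with no overlap between the days. SOX9, a duct and progenitor factor, fell from 22.5, 24.2 and 20.3 to 4.24, 0.878 and 1.84 CPM. Liver products were mostly low: of 13 tested serum protein and lipoprotein genes, 5 rose and 3 fell. APOA1, the main protein of high density lipoprotein, reached 98.1, 71.4 and 56.6 CPM from 1.21, 1.35 and 0.552 CPM. FGA, a fibrinogen chain, had no read pair on day 0 and 222 on day 4, at least 83.1-fold more against a floor of 3 read pairs over the day 0 libraries, most of them in replicate 1 (3.87, 0.379 and 0.212 CPM). AFP, a fetal serum protein gene, fell from 7.74, 2.36 and 2.63 to 0.177, 0.0399 and 0.177 CPM.

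Genes of the Nodal and activin pathway rose or did not pass. Of 28 tested, 14 were higher and none lower, with a median of 1.34; 2 were lower without day 0 replicate 4 or without day 4 replicate 1. The largest changes were in secreted feedback inhibitors, which are known targets of the pathway. CER1, an inhibitor of Nodal, BMP and Wnt ligands, went from 13.3, 12.9 and 16.4 to 397, 2680 and 1960 CPM (log2 fold change 6.88, SE 0.82, adjusted p = 2.14e-05). LEFTY2 went from 0.426, 0.397 and 5.59 to 42.4, 1200 and 215 CPM, and LEFTY1, its near copy, from 0.757, 0.377 and 4.85 to 1.2, 1520 and 425 CPM. LEFTY1 passed (8.34, SE 2.12, adjusted p = 0.00718) although day 4 replicate 1 lay below day 0 replicate 4; leaving out day 4 replicate 2 gave a log2 fold change of 6.81, and leaving out day 0 replicate 4 gave 10.23. NODAL, the ligand, likewise overlapped between the days, at 2.89, 2.05 and 3.77 CPM on day 0 and 1.63, 180 and 62.3 CPM on day 4. FST, which binds activin, did not overlap between the days and reached 204, 645 and 638 CPM from 23.7, 14 and 13 CPM.

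In the BMP pathway 16 of 29 tested genes rose and 1 fell (CHRDL1, an inhibitor, with a log2 fold change of -2.54), with a median of 2.12, and 3 fell without day 4 replicate 1. Ligands and inhibitors rose side by side. BMP5, a ligand, went from 0.497, 0.497 and 0.152 to 145, 28 and 32.2 CPM. NOG, which binds BMPs outside the cell, went from 0.0237, 0.0794 and 0.304 to 5.14, 23.9 and 20.8 CPM. SMAD6, an inhibitor inside the cell that BMP signals induce, reached 93.1, 52.6 and 102 CPM from 0.781, 0.397 and 1.08 CPM (6.77, SE 0.58, adjusted p = 1.17e-06). MSX2, a homeobox target of BMP, reached 41, 15.8 and 41.1 CPM from 0.639, 0.457 and 0.209 CPM. None of these 4 genes overlapped between the days.

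Wnt pathway genes were more often higher than lower on day 4. Of 54 tested, 24 rose and 5 fell, with a median of 1.17; 2 fell without day 0 replicate 1 or day 4 replicate 2, and 3 without day 0 replicate 2 or day 4 replicate 4. The decreases were in SFRP2 and WIF1, secreted inhibitors with log2 fold changes of -3.49 and -5.21, and in WNT8B, FZD3 and RSPO4. LGR5, a receptor for R-spondins and a target of Wnt signals, went from 0.544, 0.834 and 0.628 to 91.8, 120 and 137 CPM (log2 fold change 7.44, SE 0.47, adjusted p = 1e-07). NOTUM, a secreted enzyme that inactivates Wnt ligands, rose from 0.189, 0.179 and 0.304 to 14.5, 28 and 34 CPM, and SP5, a transcriptional target, from 0.686, 0.596 and 0.951 to 51.3, 34.1 and 75.5 CPM. Among ligands, WNT3 went from 0.118, 0.139 and 0.533 to 12.6, 17.8 and 43 CPM. WNT4 stood at 0.903, 81 and 48.7 CPM on day 4, so that replicate 1 was close to the day 0 libraries at 0.166, 0.0596 and 0.571 CPM.

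Of the FGF and ERK pathway, 9 of 36 tested genes rose (25%) and 7 fell (19.4%), with a median of -0.15. FGF8, a streak ligand, rose from 0.189, 0.0596 and 0.209 to 1.57, 31.9 and 38.2 CPM, while FGF2, the ligand that sustains human stem cells, fell from 326, 283 and 106 to 19.7, 3.83 and 14.3 CPM, and EGR1, an immediate early gene downstream of ERK, from 20.8, 12.4 and 14.4 to 1.47, 0.619 and 1.2 CPM. In the retinoic acid pathway 9 of 20 rose and 1 fell, RDH11, with a log2 fold change of -0.72; none fell without day 0 replicate 1, day 0 replicate 4 or day 4 replicate 2. CYP26A1, which degrades retinoic acid, went from 23.5, 12.7 and 22.4 to 376, 2150 and 1720 CPM (6.18, SE 0.68, adjusted p = 9.54e-06), and RXRG, a nuclear receptor, from 0.142, 0 and 0.133 to 4.38, 28.3 and 11.6 CPM. In the hedgehog pathway the ligand IHH rose from 0.0473, 0.0596 and 0.228 to 7.03, 45.8 and 18.8 CPM and the antagonist HHIP from 0.331, 0.437 and 0.342 to 13.9, 3.39 and 2.76 CPM, while the effector GLI1 fell from 12.1, 12.8 and 13.1 to 2.95, 1.78 and 2.58 CPM. Of 20 tested Notch genes, 5 rose and 1 fell; 3 rose without day 0 replicate 1, day 0 replicate 2 or day 4 replicate 2, and 3 fell without day 4 replicate 1. NOTCH3, a receptor, went from 48.3, 97.6 and 173 to 315, 326 and 520 CPM, and NRARP, a target, fell from 25.7, 23.3 and 30.3 to 7.07, 2.83 and 5.34 CPM.

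**Figure D3:**
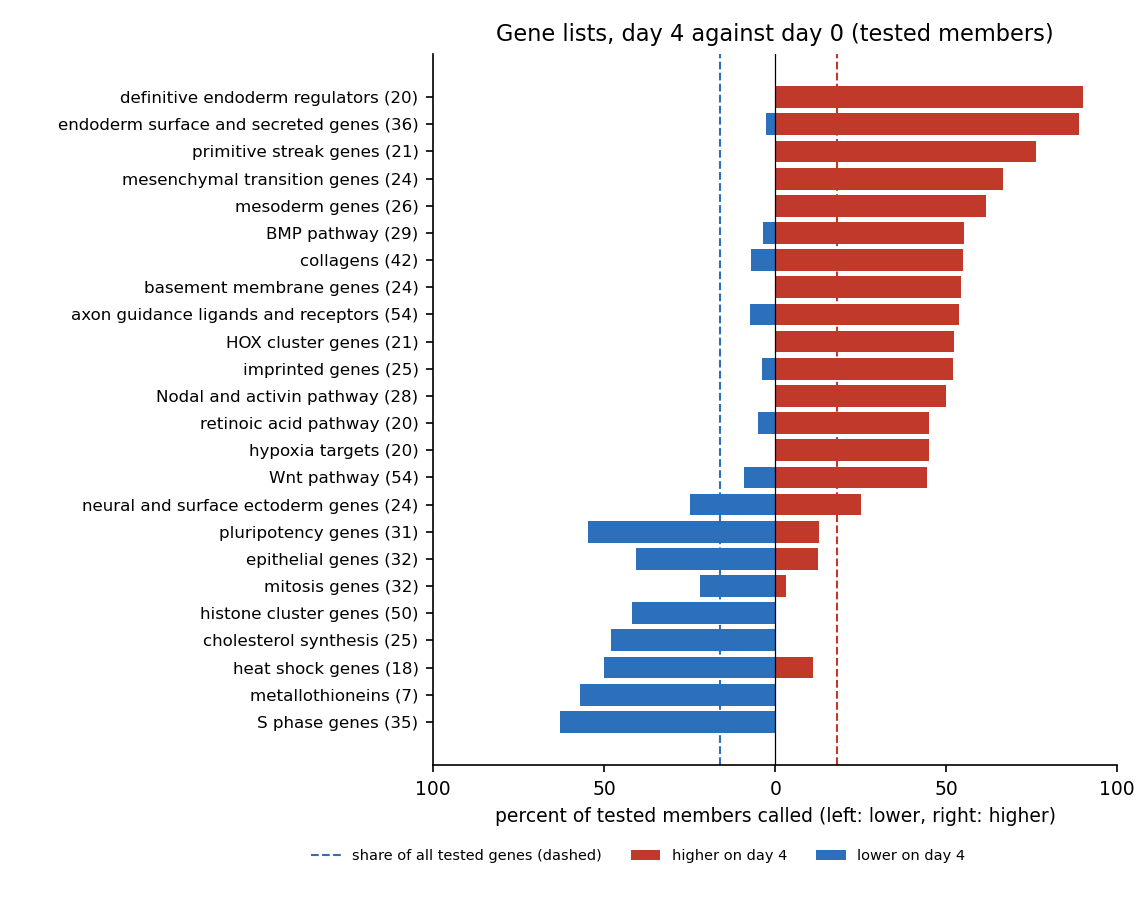
For 24 gene lists, with the number of tested members in brackets, the percentage of tested members called higher (red, right) and lower (blue, left) on day 4; dashed lines mark 18.0% and 16.2%, the shares among all tested genes. Bars of the endoderm, streak, mesenchymal and matrix lists extend past the right dashed line, and those of the S phase, metallothionein, pluripotency, heat shock and cholesterol lists past the left one. The lists were chosen with earlier results of these data known.

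Genes of neighbouring lineages were also above their day 0 level. Of 21 tested primitive streak genes, 16 rose and none fell, with a median of 4.81. EOMES, MIXL1, GSC and LHX1 on this list are also on the definitive endoderm regulator list. MIXL1, a homeobox gene of the streak, went from 2.3, 1.93 and 2.68 to 5.24, 136 and 163 CPM (log2 fold change 5.46, SE 1.06, adjusted p = 0.00123), and GSC, the homeobox gene of the organizer, from 0.0473, 0.0993 and 0.552 to 1.9, 201 and 105 CPM. In both, day 4 replicate 1 was the library nearest to day 0 and the other two libraries were far above it. T (brachyury), the defining streak gene, was far past its day 1 mean of 456 CPM and measured 1.1, 1.1 and 2.58 CPM on day 4 against 0.497, 0.636 and 0.381 CPM on day 0 (1.64, SE 0.57, adjusted p = 0.0344), and this call was lost without day 0 replicate 1 (adjusted p = 0.0922), day 0 replicate 2 (0.0577), day 0 replicate 4 (0.0836) or day 4 replicate 4 (0.166).

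Of 26 tested mesoderm genes, 16 rose and none fell, with a median of 3.57. HAND1, a factor of lateral mesoderm and heart, went from 1.23, 1.07 and 0.666 to 109, 27.2 and 98.1 CPM (log2 fold change 6.3, SE 0.77, adjusted p = 2.7e-05), TBX3 from 1.87, 1.05 and 0.609 to 230, 20.8 and 51.9 CPM, and FOXF1, a factor of gut mesenchyme, from 0.0473, 0.278 and 0.0571 to 4.69, 8.54 and 8.09 CPM. The summed level of the mesoderm list was 169, 269 and 281 CPM on day 0 and 927, 276 and 681 CPM on day 4, so replicate 2 lay within the day 0 range. The summed level of the definitive endoderm regulator list was lowest in replicate 1, at 318, 412 and 414 CPM on day 0 and 2220, 7580 and 5680 CPM on day 4. That sum includes the secreted inhibitor CER1, at 397, 2680 and 1960 CPM on day 4, and the receptors CXCR4 and KIT. The part of other cell types in these levels was not tested.

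Other lineage lists held both higher and lower genes. The share higher was 60% for extraembryonic endoderm markers and 61.5% for trophoblast and amnion genes, near the 61.5% of the mesoderm list. The shares lower were 6.67% and 23.1%. For blood and endothelial genes 41.2% were higher, and for neural and surface ectoderm genes 25%. VWF, the von Willebrand factor gene of endothelium, rose from 1.66, 1.39 and 1.2 to 140, 148 and 52.6 CPM, and SOX18, another endothelial gene, from 0.0237, 0.0199 and 0.171 to 6.13, 5.67 and 6.54 CPM. In the same list of 17 tested blood and endothelial genes, 7 rose and 2 fell, the latter TIE1 and ERG, of which 1 was lost in every fit that left out a library other than day 4 replicate 2. Of 15 tested extraembryonic endoderm markers, 9 rose and 1 fell (AFP), among them PDGFRA, from 7.71, 6.61 and 3.81 to 133, 32 and 32.1 CPM, and LIFR, from 48.1, 73.6 and 25.1 to 972, 235 and 288 CPM. The summed level of this list was 1050, 1650 and 1430 CPM on day 0 and 6910, 3460 and 4070 CPM on day 4. In 24 tested neural and surface ectoderm genes, 6 rose and 6 fell, with a median of 0.07. LHX2, a forebrain homeobox gene, rose from 0.497, 0.497 and 1.22 to 2.08, 73.9 and 22.6 CPM, and POU3F1, a neural POU factor, fell from 43.8, 26.4 and 31.1 to 1.35, 2.79 and 1.55 CPM. Of 13 tested trophoblast and amnion genes, 8 rose and 3 fell (5 rose without day 0 replicate 1 or day 0 replicate 2). GATA3 went from 1.16, 0.675 and 0.457 to 103, 24.1 and 36.7 CPM.

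Mesenchymal and matrix genes rose and part of the epithelial genes fell. Of 24 tested mesenchymal transition genes, 16 rose and none fell, with a median of 2.69. COL5A2, a fibrillar collagen chain, went from 41.2, 36.7 and 41.4 to 3670, 6240 and 6000 CPM (log2 fold change 7.06, SE 0.44, adjusted p = 8.92e-08). VIM (vimentin) went from 120, 55.6 and 85.8 to 945, 1530 and 2070 CPM, and CDH2 (N-cadherin) from 105, 95 and 85.3 to 1410, 1310 and 1510 CPM, the latter nearly equal in the 3 day 4 libraries. ITGA5, the fibronectin receptor chain, reached 583, 486 and 686 CPM from 16.7, 17.9 and 32.8 CPM. CDH1 (E-cadherin) fell from 229, 382 and 294 to 16.5, 8.38 and 54 CPM (-3.52, SE 0.85, adjusted p = 0.00515). GRHL2, a factor of epithelial transcription, fell from 28.9, 42.8 and 37.9 to 1.53, 0.938 and 2.51 CPM. ESRP1, a factor of epithelial splicing, fell from 412, 401 and 199 to 52.8, 31.5 and 30.8 CPM.

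Of 32 tested epithelial genes, 13 fell and 4 rose, and 7 fell without day 4 replicate 2. The 4 that rose were the keratins KRT8 (523, 330 and 636 to 1600, 1470 and 2270 CPM) and KRT19 (93.5, 71.2 and 130 to 400, 812 and 491 CPM), which are also expressed by gut epithelium, and the desmosome genes DSP and PKP2. Of 24 tested basement membrane genes, 13 rose and none fell. COL4A1, a chain of type IV collagen, went from 118, 148 and 105 to 1820, 661 and 712 CPM, and HSPG2 (perlecan) from 15.4, 56.3 and 106 to 339, 434 and 450 CPM. Of 42 tested collagens, 23 rose and 3 fell. Axon guidance genes, which also guide migrating cells outside the nervous system, rose in 29 of 54 tested and fell in 4 (1 without day 4 replicate 2, and 2 without day 0 replicate 2 or day 4 replicate 4). The netrin gene NTN1 went from 1.61, 2.38 and 5.1 to 84.4, 513 and 425 CPM and the plexin gene PLXNA2 from 2.53, 4.11 and 6.39 to 141, 394 and 442 CPM. The protocadherin PCDH10 went from 15.5, 19.1 and 23.2 to 900, 792 and 1130 CPM.

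HOX genes set position along the body axis and lie in 4 clusters. In the HOXB cluster 9 of 10 tested genes rose, all but HOXB1, and in the HOXD cluster 2 of 4, HOXD1 and HOXD13. None of 7 tested HOXA genes passed, none of the 9 HOXC genes had enough counts to test, and none of the tested HOX genes fell. The difference between clusters was not tested. HOXB3 went from 0.166, 0.0397 and 0.0761 to 20.8, 14.2 and 15.9 CPM (log2 fold change 7.5, SE 0.6, adjusted p = 6.01e-07) and HOXB2 from 0.118, 0.0596 and 0.0381 to 11, 9.24 and 12.2 CPM. HOXB6 had no read pair on day 0 and 454 on day 4 (2.1, 1.44 and 9.72 CPM), at least 170-fold more against the floor of 3 read pairs. The 3 libraries of day 4 were alike for HOXB2 and HOXB3. These are low levels, and neighbouring genes in a cluster can share overlapping transcripts. The median over the 21 tested HOX genes was 4.78, and 3.71 with genes at 0 on 1 day set to that floor.

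Imprinted genes, which are expressed from 1 parental copy, rose in 13 of 25 tested and fell in 1 (KCNQ1OT1), with a median of 1.27; the number that fell was 0 without day 0 replicate 2, day 4 replicate 2 or day 4 replicate 4 and 2 without each of the other 3 libraries in turn. Beside DIO3, its neighbour RTL1 went from 0.26, 0.0794 and 0.152 to 9.8, 23.1 and 14.5 CPM (log2 fold change 6.59, SE 0.58, adjusted p = 1.51e-06). PEG10, a gene derived from a retrotransposon, went from 506, 700 and 515 to 4840, 1920 and 3050 CPM and was among the 6 genes with the largest increases in CPM. SNRPN, a splicing protein gene of the Prader-Willi region, went from 3.19, 2.66 and 3.08 to 28.6, 42.3 and 58.6 CPM, and CDKN1C (p57), a cell cycle inhibitor, from 9.75, 3.87 and 11.1 to 47, 62 and 79 CPM. IGF2, a fetal growth factor, stayed low, with 10 read pairs on day 0 and 348 on day 4, a ratio of 39.1 with an exact 95% interval of 21 to 82.2.

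Pluripotency genes fell unevenly. Of 31 tested, 17 fell, 4 rose and 10 did not pass, with a median of -2.73. SOX2 fell from 313, 157 and 132 to 6.09, 3.75 and 14.7 CPM (log2 fold change -4.62, SE 0.61, adjusted p = 5.62e-05) and NANOG from 174, 229 and 118 to 12.6, 17.5 and 56.6 CPM (-2.59, SE 0.61, adjusted p = 0.0046). POU5F1 went from 319, 262 and 765 to 16.8, 28 and 119 CPM (-3.04, SE 0.93, adjusted p = 0.02). The days did not overlap for these 3 factors, and replicate 4 was the highest library of day 4 for each. The POU5F1 call was lost without day 0 replicate 4 (adjusted p = 0.0715), day 4 replicate 1 (0.0643) or day 4 replicate 2 (0.0924). POU5F1 has expressed pseudogenes, with which reads may be shared.

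Other large decreases on the list were in LECT1, a chondromodulin gene with a high level in stem cells (126, 122 and 125 to 1.94, 1.1 and 4.77 CPM), FOXD3, a forkhead factor (68.3, 34.7 and 34.5 to 0.569, 1.28 and 1.73 CPM), and TERF1, a telomere protein gene (1700, 1530 and 501 to 92.8, 38.3 and 61.2 CPM). DNMT3B, a DNA methyltransferase typical of stem cells, fell from 1390, 1780 and 1950 to 230, 162 and 318 CPM (-2.85, SE 0.29, adjusted p = 5.33e-06). PHC1, a Polycomb gene outside the pluripotency list, fell from 205, 547 and 411 to 55.4, 43.7 and 62.4 CPM. Both are on a list of 28 tested DNA methylation and Polycomb genes, of which 6 rose and 6 fell (21.4% each). Those that rose included PHC2 and CBX7, with log2 fold changes of 2.93 and 2.42. On the pluripotency list, the genes that rose included NODAL, GDF3 and PODXL, and 2 rose without day 0 replicate 2 or day 0 replicate 4. PODXL, a surface sialomucin used as a stem cell antigen, went from 1900, 2590 and 2510 to 7700, 5210 and 3680 CPM (1.24, SE 0.44, adjusted p = 0.0387), with a mean of only 161 CPM on day 1. Its call was lost in 5 of the 6 fits that left out 1 library, all but that without day 4 replicate 4, with adjusted p up to 0.115.

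Outside that list, large decreases by fold were found in SPIB, an ETS factor of the lymphoid lineage, from 21.7, 14.3 and 30.3 to 0.137, 0.12 and 0.177 CPM (log2 fold change -7.26, SE 0.76, adjusted p = 6.41e-06), IDO1 as above, and SPTSSB, a subunit of the first enzyme of sphingolipid synthesis, from 12.5, 9.57 and 5.46 to 0.0393, 0.0399 and 0.177 CPM. ST8SIA3, a sialyltransferase, fell from 31.1, 34.6 and 20.5 to 0.746, 0.2 and 0.459 CPM. DAZL, a germ cell RNA binding protein, fell from 9.3, 6 and 1.5 to 0.0982, 0.0799 and 0.0353 CPM. Among the 6 genes with the largest decreases in CPM were transcripts abundant on day 0. NPM1, a nucleolar chaperone, fell from 7670, 3920 and 2640 to 1050, 918 and 980 CPM, CD24, a surface glycoprotein of stem cells, from 3500, 2360 and 1500 to 339, 147 and 193 CPM, and SEPHS1, a selenophosphate synthetase, from 2700, 2450 and 2080 to 173, 191 and 270 CPM (-3.51, SE 0.28, adjusted p = 6.91e-07). In SEPHS1 the 3 libraries of each day were close to each other, while in NPM1 day 0 replicate 1 stood well above the other two.

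Genes of DNA replication fell together. Of 35 tested S phase genes, 22 fell and none rose, with a median of -1.09. MCM4, a subunit of the replicative helicase, went from 567, 860 and 636 to 252, 81.6 and 136 CPM (log2 fold change -2.14, SE 0.39, adjusted p = 0.000738), RRM2, a subunit of ribonucleotide reductase, from 387, 296 and 206 to 77.9, 53 and 64.5 CPM, and CDC6, an origin licensing factor, from 207, 213 and 240 to 82, 38.9 and 64 CPM. In MCM4 and CDC6 replicate 1 was the highest of day 4, still below day 0. Of 32 tested mitosis genes, 7 fell and 1 rose (CDC25B); the difference between the lists was not tested. In mitosis genes 3 fell without day 0 replicate 1, day 4 replicate 2 or day 4 replicate 4 and 11 without day 0 replicate 4. CDC25B did not pass without day 0 replicate 1, day 0 replicate 2, day 4 replicate 2 or day 4 replicate 4. BUB3, a spindle checkpoint gene, went from 471, 361 and 302 to 119, 111 and 103 CPM. Among regulators of G1, MYCN fell from 219, 173 and 232 to 24.1, 15.2 and 17.6 CPM, MYC from 137, 86 and 108 to 7.48, 16.8 and 40.7 CPM, and the inhibitor CDKN1B (p27) rose from 51.5, 25.2 and 13.4 to 135, 135 and 84.5 CPM.

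Metabolic lists differed in direction. Of 25 tested cholesterol synthesis genes, 12 fell and none rose, with a median of -1.14. HMGCS1, the entry enzyme of the pathway, went from 2700, 2660 and 1320 to 388, 462 and 412 CPM (log2 fold change -2.4, SE 0.49, adjusted p = 0.00174), and CYP51A1, a later enzyme of the pathway, from 732, 528 and 456 to 158, 146 and 159 CPM. Heat shock genes fell in 9 of 18 tested and rose in 2, BAG3 and HSP90B1 (1 without day 0 replicate 4 or day 4 replicate 2). HSPA8, the constitutive HSP70, went from 4180, 6010 and 4640 to 1010, 1830 and 1380 CPM. In glycolysis 6 of 23 tested genes rose and 3 fell, but 2 rose without day 0 replicate 1 or day 4 replicate 2 and 3 without day 0 replicate 2, and 5 fell without day 4 replicate 2. SLC2A3, the glucose transporter GLUT3, had the largest increase in CPM among called genes whose days did not overlap, from 778, 1000 and 1020 to 6350, 11000 and 7960 CPM (3.18, SE 0.33, adjusted p = 5.54e-06), while SLC2A1 (GLUT1) fell from 890, 657 and 700 to 177, 508 and 200 CPM. The SLC2A1 call was lost without day 0 replicate 1 (adjusted p = 0.0537), day 4 replicate 1 (0.0572) or day 4 replicate 4 (0.0743). PKM2, the deposited name for the pyruvate kinase gene, went from 704, 794 and 1970 to 2600, 10800 and 9280 CPM. It was not matched to the glycolysis list and is not in the counts of that list. GAPDH, often used as a reference gene, fell from 9300, 4550 and 5170 to 2550, 3160 and 2700 CPM.

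Hypoxia targets rose in 9 of 20 tested and fell in none (1 without day 0 replicate 4), and day 4 replicate 2 stood highest. BNIP3, a mitophagy receptor, went from 46.2, 18.1 and 29.9 to 111, 830 and 284 CPM, and VEGFA from 46.8, 32.9 and 38.8 to 149, 261 and 58.3 CPM. SLC16A3, a lactate exporter that is on the glycolysis list and not on this one, went from 0.308, 0.357 and 1.69 to 13.9, 252 and 27.3 CPM. The summed level of the hypoxia list was 1030, 1010 and 909 CPM on day 0 and 1430, 2960 and 1310 CPM on day 4. The part of oxygen supply in replicate 2 was not tested.

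Several decreases moved with day 0 replicate 1, the library with the largest share of ribosomal protein counts. Of 83 tested ribosomal protein genes 13 fell, 15.7% against 16.2% of all tested genes, and of 52 tested respiratory chain genes 13 fell (25%), with none higher in either list; without day 0 replicate 1, 2 and 2 fell. The counts were 6 and 7 without day 4 replicate 1 and 5 and 4 without day 4 replicate 2, and 7 ribosomal protein genes fell without day 4 replicate 4. RPS29 shows the pattern, at 1800, 185 and 151 CPM on day 0 and 134, 83.4 and 76 CPM on day 4, as does NDUFA4, at 889, 178 and 189 CPM against 106, 116 and 116 CPM. Without that library neither passed, with adjusted p of 0.0825 for RPS29 and 0.147 for NDUFA4. Metallothioneins, small proteins that bind zinc and copper and are near copies of each other, fell in 4 of 7 tested, in 1 without that library and in 2 without day 4 replicate 2 or day 4 replicate 4. MT1X measured 90.9, 13.9 and 26.3 CPM on day 0 and 1.47, 1.8 and 4.24 CPM on day 4, a log2 fold change of -4.13 (adjusted p = 0.00245) that was -2.98 without day 0 replicate 1 (adjusted p = 0.0189). Histone cluster genes, whose main transcripts lack the polyA tail by which these libraries were selected, fell in 21 of 50 tested with none higher. In fits that left out 1 library their lowest count was 16, without day 4 replicate 2. HIST1H2BJ went from 4.43, 2.64 and 2.49 to 0.0785, 0.0799 and 0.353 CPM. Of 196 tested small nucleolar RNA genes, also without a polyA tail and often inside host genes, 43 were lower (21.9%) and 1 higher (0.51%). Among all tested genes 16.2% were lower and 18.0% higher. Whether these counts depended on single libraries was not tested.

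The 3 day 4 libraries differed in part of the called genes. Among 4015 called genes that reached 5 CPM in a day 4 library, 106 stood at least 4-fold lower in replicate 1 than in both other libraries and 43 at least 4-fold higher; the corresponding numbers were 13 and 13 for replicate 2 and 4 and 6 for replicate 4. On the low side of replicate 1 were LEFTY1, NODAL, GSC, MIXL1, WNT4, FGF8 and LHX2, given above, and KLHL6, a substrate adaptor of an E3 ligase known from B cells (1.06, 96.5 and 43.5 CPM). On the high side were BMP5 and PDGFRA, given above, RSPO3, a Wnt agonist (44.8, 3.45 and 5.97 CPM), the protocadherin PCDH17 (101, 6.71 and 7.84 CPM) and COL19A1 (35.8, 1.76 and 2.4 CPM). The log2 fold change of COL19A1 was 8 with all libraries and 5.39 without that library, and the PCDH17 call was lost without it (adjusted p = 0.0565). Replicate 1 was the lowest day 4 library in 51.8% of the higher genes and the highest in 60.1% of the lower genes, against 39.5% and 44.0% over all tested genes. On day 0, replicate 4 was the highest library in 53.8% of the higher genes and the lowest in 54.9% of the lower genes, against 38.7% and 34.2%. Without day 4 replicate 1 the counts were 3276 higher and 2883 lower.

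**Figure D4:**
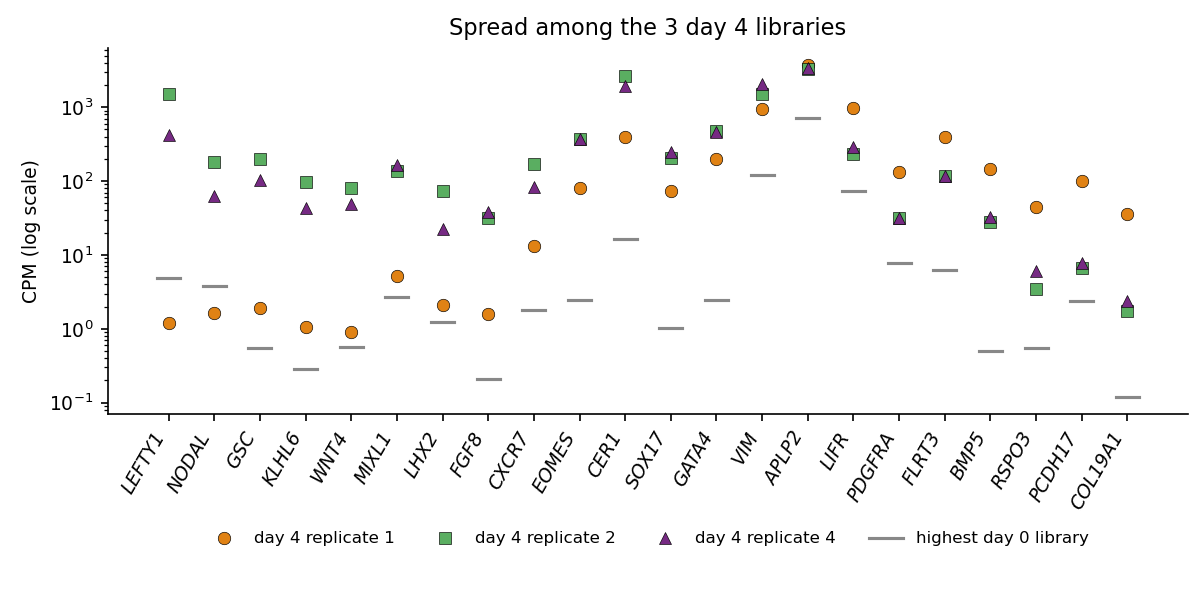
CPM on a log axis of 22 called genes in day 4 replicates 1 (orange circles), 2 (green squares) and 4 (purple triangles); grey lines mark the highest of the 3 day 0 libraries. At the left replicate 1 is near or below the day 0 level (LEFTY1 1.2, 1520 and 425 CPM), in the middle the libraries are alike (APLP2 3770, 3270 and 3390 CPM), and at the right replicate 1 is the highest (COL19A1 35.8, 1.76 and 2.4 CPM).

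Of the 3137 genes higher on day 4, 1683 (53.6%) had their highest daily mean on day 4, 974 on day 3, 282 on day 2 and 198 on day 1. Of the 2811 lower genes, 1487 (52.9%) had their lowest mean on day 4 and 135 on day 1. MIXL1 is an example of a gene past its peak: its means were 2.3, 1200, 332, 159 and 101 CPM from day 0 to day 4. The means of SOX17 were 0.844, 0.656, 82.9, 150 and 175 CPM and those of CXCR4 1.46, 6.53, 26, 79.5 and 272 CPM, both highest on day 4. IHH had a mean of 0.112, 0.221, 0.0902, 3.05 and 23.9 CPM and APOA1 one of 1.04, 1.02, 1.52, 7.26 and 75.4 CPM, so each was low up to day 2. PODXL went the other way first, with means of 2330, 161, 595, 2830 and 5530 CPM. These peaks are a description of daily means, and neighbouring days were not tested here.

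**Figure D5:**
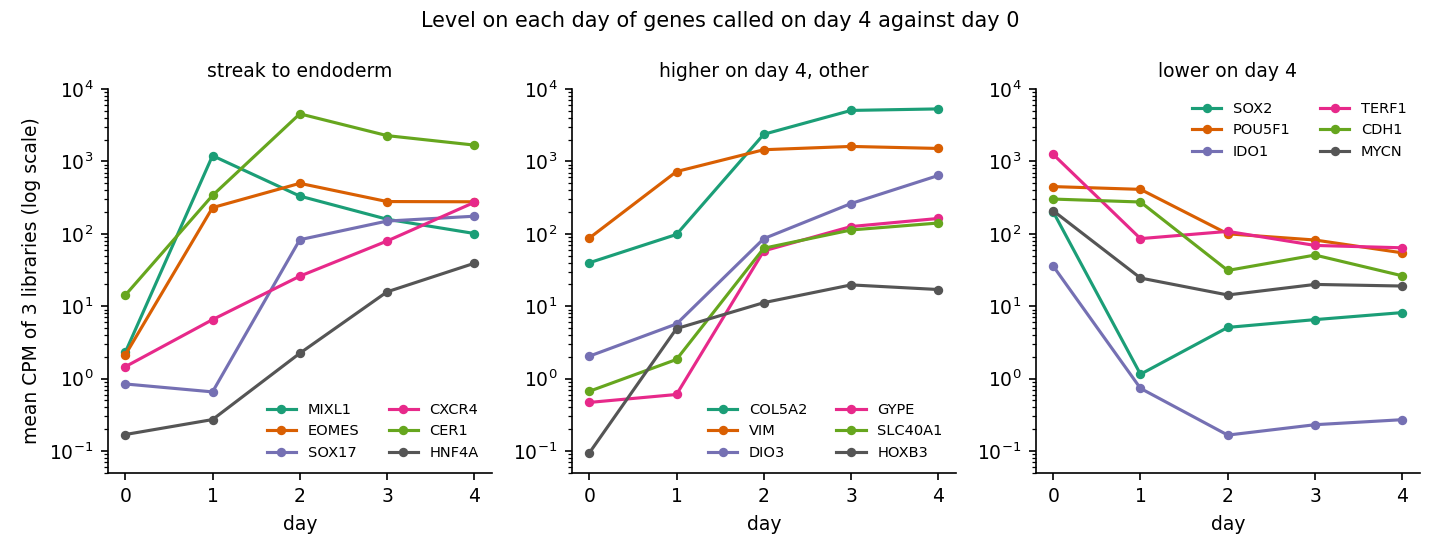
Mean CPM of the 3 libraries of each day on a log axis, from day 0 to day 4, for 18 genes called on day 4 against day 0: streak and endoderm genes (left), other increases (middle) and decreases (right). MIXL1 peaks on day 1 at 1200 CPM and ends at 101, SOX17 rises between day 1 (0.656 CPM) and day 2 (82.9 CPM), and SOX2 has its lowest mean on day 1 (1.15 CPM) and IDO1 on day 2 (0.166 CPM).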

How the data were processed

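RNA was polyA-selected and made into directional libraries, per the labels' protocols. The authors deposited 1 table of counts per gene symbol for 15 libraries. Reads were aligned with TopHat2 2.0.14 to hg19, per the submitters' processing notes; no source used here names the counting program, the annotation or how strand was used, and genes with near copies, overlapping or antisense genes (LEFTY1 and LEFTY2, glycophorins, histones, metallothioneins, protocadherins) are uncertain. All counts were even, so both mates of a pair were taken as counted and read pairs are counts divided by 2. Of 23398 entries, 44 identical repeats were dropped and 8 summed, which left 23346 symbols.

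Libraries were grouped by the day in their labels. The main fit was edgeR 4.0.16 (R 4.3.3) with TMM scaling, its low-count filter by day, a quasi-likelihood F-test over all 15 libraries, the contrast day 4 minus day 0 and Benjamini-Hochberg adjustment over 17401 genes, at 0.05. DESeq2 1.42.0 was an alternative. Each SE was taken as the size of the log2 fold change over the root of its F statistic. A gene at 0 in all libraries of a day is compared with a floor of 3 read pairs over that day's libraries; intervals and floors cover counting error only. Library correlations used log2 of CPM plus 1.

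The members and gene lists were chosen with earlier results of these data known. Named genes are the 4 given markers, the 12 largest increases and decreases by fold (mean of at least 5 CPM, no overlap between days), the 6 largest by CPM, up to 6 called members of each list by fold, and a fixed set (POU5F1, NANOG, SOX2, T, MIXL1, EOMES, FOXA2, HHEX, CXCR4, CER1). Outside that rule, and chosen after their values were seen, are GYPB, SOX7, SALL4, SFRP5, DPP4, SHISA2, CHRDL1, SFRP2, WIF1, WNT8B, FZD3, RSPO4, RDH11, ERG, DSP, PKP2, HOXB1, HOXD1, HOXD13, KCNQ1OT1, GDF3 and HSP90B1. Some genes that the rule or a count would name are not reported here. On simulated counts for 17039 genes the fit recovered 39.4% of 99 genes changed 4-fold and 0.0% of 96 changed 2-fold, with 1 unchanged gene called. Far fewer genes were changed there than were called in the data, so these shares do not measure the power of this comparison. Promoter windows were matched by symbol to RefSeq, GRCh38.p14.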

Additional observations from a re-analysis of the deposited data

How the results depend on the processing

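The alternatives changed the number of calls and reversed the direction of no named gene: 258 of the 318 named genes were called in every setting and 60 were not in at least 1. With only the day 0 and day 4 libraries in the fit, 2284 genes were higher and 1798 lower. Leaving out each library in turn gave 2438 to 3707 higher and 1613 to 2933 lower genes, the lowest of both without day 4 replicate 2. DESeq2 called 3718 and 3332, no low-count filter 3133 and 2576, scaling by library totals alone 3209 and 2472, and halved counts (chosen after seeing the data) 3145 and 2884. The share of calls that were higher was 52.7% and reached 60.2% without day 4 replicate 2 and 59.1% without day 4 replicate 4. The numbers were not taken as pairs, since the labels do not say that a number marks a shared culture. Libraries with the same number on both days deviated from their day means together at r = 0.217, -0.332 and 0.555 for numbers 1, 2 and 4. For different numbers r ran from -0.629 to 0.566. Deviations within a day are tied to each other, so these values cannot decide pairing. A fit with the replicate number as a block called 3880 higher and 3603 lower genes, of which 3115 and 2794 were also called without it. Total counts of 54723184 or more do not limit abundant genes. In the simulation 39.4% of 99 genes changed 4-fold and 0.0% of 96 changed 2-fold were called. Far fewer genes were changed there than were called here, which makes its adjusted p cut-off stricter. Those shares therefore do not measure the power of this comparison, where the smallest called change was 0.59 on the log2 scale. A gene that did not pass may still differ 2-fold or 4-fold.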

Other observations

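Further lists had more higher genes than the 18.0% of all tested genes, while several had a share of lower genes near the 16.2% of all. Of 106 tested potassium and calcium channel genes, 27 (25.5%) were higher and 17 (16.0%) lower on day 4 (10 lower without day 4 replicate 2 and 11 without day 4 replicate 4). KCNJ3 and KCNJ5, which form the acetylcholine-gated potassium channel of the heart atrium, rose from 0.0947, 0.0993 and 0.133 to 27.9, 12.1 and 5.87 CPM and from 0.118, 0.139 and 0.0951 to 17.5, 10.8 and 12.7 CPM. Of 18 tested claudins, 8 were higher and 4 lower (2 lower without day 0 replicate 4 or day 4 replicate 1, and 1 without day 4 replicate 2). CLDN18, a tight junction gene of stomach and lung, went from 0, 0.0596 and 0.133 to 1.02, 2.78 and 0.424 CPM. LINC00261, a noncoding RNA next to FOXA2, rose from 1.3, 1.17 and 0.304 to 132, 65.1 and 16.8 CPM.

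Of 26 tested chemokine, cytokine and prostaglandin genes, 10 were higher and 6 lower (3 lower without day 0 replicate 1). CXCR7, the second receptor for the ligand of CXCR4, rose from 1.8, 1.81 and 1.27 to 13.2, 169 and 82.4 CPM, and APLNR, the apelin receptor, from 4.43, 3.5 and 3.25 to 131, 72.4 and 251 CPM. Of 30 tested interferon response genes, 8 (26.7%) were higher and 5 (16.7%) lower (5 higher without day 0 replicate 2 and 3 lower without day 4 replicate 2). The DNA sensor IFI16 rose from 0.308, 0.338 and 0.285 to 11.3, 9.38 and 5.72 CPM, and the antiviral gene MX1 fell from 3.62, 4.33 and 5.37 to 0.0982, 0 and 0.389 CPM. Of 22 tested p53 targets, 7 were higher (4 without day 0 replicate 1, day 0 replicate 2 or day 4 replicate 4) and 2 lower (none without day 0 replicate 1 or day 4 replicate 2). BTG2, an antiproliferative gene, rose from 3.17, 4.05 and 2.53 to 67.3, 115 and 66.2 CPM. In the naive pluripotency list, 4 of 13 tested genes were higher (30.8%) and 2 lower (15.4%), with a median of 0.11; 1 was lower without day 0 replicate 1, day 4 replicate 2 or day 4 replicate 4. Among them NR0B1 (DAX1) went from 0, 0.199 and 0.304 to 5.38, 46.5 and 32 CPM and KLF5 from 3.34, 2.11 and 2 to 31.6, 28.6 and 32.2 CPM, and PRDM14 fell from 37.3, 56.6 and 75.3 to 2.53, 4.51 and 9.12 CPM.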
